A study of Mus musculus with 15 samples.

Results

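The comparison is the response of the thymus to the peptide gp33 in NOD.LCMV mice, read across 19938 genes on 6 of the study's 15 arrays. Its members are the 3 arrays labelled NOD.LCMV thymus with gp33 and the 3 labelled NOD.LCMV thymus with the Db peptide. The mice were females 5 weeks old. Each received 0.5 µg of peptide into a vein, and total RNA of the whole thymus was collected 2 h later and hybridised to a Mouse Gene 1.0 ST array. gp33 is a fragment of the lymphocytic choriomeningitis virus (LCMV) glycoprotein that the class I molecule Db presents to CD8 T cells, and the Db peptide, here called the control peptide, binds Db as well. NOD is an inbred strain that develops autoimmune diabetes. The other 9 arrays come from NOD.Ln82-LCMV mice, 4 with the control peptide and 5 with gp33. They enter the fit and one closing comparison. Neither the Ln82 segment nor an LCMV-specific receptor transgene, with the cells that express it, is described in the labels.

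In the thymus, developing T cells test their receptor against peptides on other cells. A strong signal in the cortex or medulla leads to deletion of the thymocyte or to a diverted fate. The receptor acts through NFAT, the MAP kinase and AP-1 pathway and NF-κB. Early targets of these pathways include transcription factors, cytokines and the inhibitors that later switch the signal off. The title of the series concerns Nfkbid, which encodes a nuclear IκB protein, and how NOD thymus deletes CD8 T cells.

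Values are the deposited log2 values, so 1 unit is a 2-fold difference. A difference is gp33 minus control and is given with its standard error from limma. A gene was called when its Benjamini-Hochberg adjusted p over all 19938 genes was under 0.05, and "rose" and "fell" refer to called genes. The p-values measure only the spread between these arrays, and 3 against 3 arrays cannot give an exact two-sided permutation p below 0.1. The median of an array was 7.59 to 7.67, and the correlation across probe sets within a group was 0.990 or more. Precision is limited by how few arrays there are. The labels name no processing batch. Thymocyte markers fixed with the design were bright in the control arrays, for example Cd3e at a mean of 13.0, Cd8a at 12.6, Themis at 12.4 and Rag1 at 11.7. The control arrays differed widely in fat-cell markers. The mean over 5 of them (Adipoq, Plin1, Cidec, Fabp4 and Lep) ranged from 8.0 to 9.56 in the control arrays and from 8.03 to 8.55 with gp33, and none of the 5 was called. The mean over 5 B-cell markers also ranged more widely with the control peptide, from 7.53 to 8.48, than with gp33, from 7.57 to 7.96. Their part in the results was not tested beyond leaving out each array in turn.

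Of the 19938 genes, 1453 (7.29%) were called higher and 2490 (12.5%) lower, 19.8% in all. The increases were the larger changes. At least 2-fold differences were 195 increases (0.978% of the genes) and 10 decreases (0.0502%), and 17 increases were at least 8-fold whereas no decrease reached 4-fold. Of the genes called lower, 1581 changed by less than 1.25-fold. The share of increases among all calls depended on the scaling. It was 36.9% on the deposited values and 47.2% after centring each array on its median, which gave 1632 increases and 1829 decreases. The median difference over all genes was −0.03. All 3 gp33 arrays lay above all 3 control arrays for 2165 genes (10.9%) and below them for 4392 genes (22.0%).

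**Figure D1:**
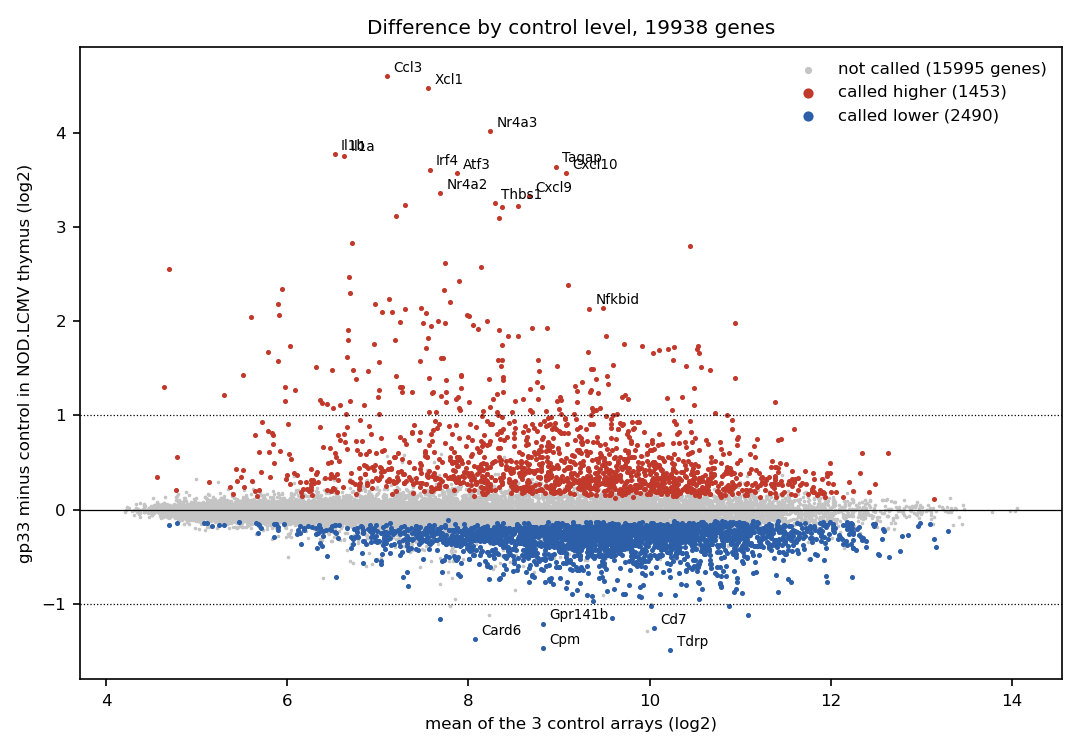
Difference between gp33 and control peptide in NOD.LCMV thymus (log2, vertical axis) against the mean of the 3 control arrays (log2, horizontal axis), 1 point per gene; red points are the 1453 genes called higher, blue points the 2490 called lower, grey points the rest, and dotted lines mark 2-fold. The increases reach 4.60 for Ccl3, and the largest decrease is −1.49 for Tdrp.

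Short sequences of the microRNAs and promoters that recur below are shown first, from RefSeq with coordinates on GRCm38.p6. All are written 5′ to 3′. In the microRNAs the capitals mark the seed, bases 2 to 8, through which a microRNA pairs with its targets. Mir155 gave the largest change of any microRNA gene, and 5 neighbours on chromosome 14 rose as a block, so their main arms are grouped here by shared seed.
miR-155-5p: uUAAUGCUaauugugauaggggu
miR-17-5p: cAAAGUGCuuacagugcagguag
miR-20a-5p: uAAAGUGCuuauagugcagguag
miR-18a-5p: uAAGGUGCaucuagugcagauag
miR-19a-3p: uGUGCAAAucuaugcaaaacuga
miR-19b-3p: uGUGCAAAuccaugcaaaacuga
miR-17-5p and miR-20a-5p share the seed AAAGUGC, miR-19a-3p and miR-19b-3p share GUGCAAA, miR-18a-5p has AAGGUGC and miR-155-5p has UAAUGCU.

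The promoters shown belong to Nfkbid, Nfkbia and Rel of the NF-κB system and to Egr2, a target of serum response factor. Each runs from 250 bases before a transcription start to 50 bases after it. Of several windows of a gene, 1 with a match is shown: 1 of 3 Nfkbid windows holds a κB match, and 4 of 5 Egr2 windows hold a CArG box. The Egr2 windows that start at bases 67537619, 67537620 and 67537680 overlap and hold the same box. Capitals mark matches to the κB motif in the first 3 and to the CArG box, the binding motif of serum response factor, in Egr2.
Nfkbid (chr7:30422156-30422455, plus strand): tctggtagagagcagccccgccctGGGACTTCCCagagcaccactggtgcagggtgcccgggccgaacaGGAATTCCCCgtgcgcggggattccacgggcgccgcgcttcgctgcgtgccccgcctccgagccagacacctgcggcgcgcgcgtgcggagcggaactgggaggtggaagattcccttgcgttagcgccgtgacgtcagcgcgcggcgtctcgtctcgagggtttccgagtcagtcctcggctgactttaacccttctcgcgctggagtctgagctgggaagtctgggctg
Nfkbia (chr12:55492598-55492897, minus strand): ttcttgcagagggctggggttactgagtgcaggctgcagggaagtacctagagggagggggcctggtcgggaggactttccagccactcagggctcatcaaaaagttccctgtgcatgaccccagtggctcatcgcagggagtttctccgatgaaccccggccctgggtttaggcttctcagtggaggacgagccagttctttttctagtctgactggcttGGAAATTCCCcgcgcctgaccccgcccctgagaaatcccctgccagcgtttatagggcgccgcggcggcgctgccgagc
Rel (chr11:23770920-23771219, minus strand): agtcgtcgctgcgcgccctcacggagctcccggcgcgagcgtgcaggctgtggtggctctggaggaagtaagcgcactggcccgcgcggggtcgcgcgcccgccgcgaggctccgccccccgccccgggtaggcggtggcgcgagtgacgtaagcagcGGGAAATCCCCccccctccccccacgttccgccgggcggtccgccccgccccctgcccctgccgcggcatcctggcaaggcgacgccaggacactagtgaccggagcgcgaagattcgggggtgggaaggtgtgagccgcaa
Egr2 (chr10:67537619-67537918, plus strand): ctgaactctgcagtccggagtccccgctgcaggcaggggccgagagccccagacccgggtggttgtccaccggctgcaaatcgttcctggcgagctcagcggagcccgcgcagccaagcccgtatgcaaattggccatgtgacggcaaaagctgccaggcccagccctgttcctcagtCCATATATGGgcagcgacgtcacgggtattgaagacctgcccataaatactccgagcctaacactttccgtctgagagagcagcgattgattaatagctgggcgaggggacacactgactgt
A match describes letters in a window and is no evidence of binding. The table of promoters held 32851 windows, of which 4.51% had a κB match. For the genes tested here it held 19177 windows, of which 4.95% had one. It matched 146 of the 195 genes called at least 2-fold higher with 180 windows, of which 30 (16.7%) had one. Of the 12 windows of the NF-κB family, 8 had one (66.7%). The other motifs are given as shares of the 180 windows, of those of the genes tested and of all windows, in that order. The AP-1 motif TGANTCA was in 12.2%, 6.90% and 7.81%, the CArG box in 3.89%, 1.41% and 1.63%, and the EGR motif GCGNGGGCG in 10%, 8.16% and 5.55%. The CRE TGACGTCA was in 2.22%, 2.37% and 1.79%, the E-box CACGTG in 7.78%, 8.24% and 7.15%, and the NR4A motif AAAGGTCA in 0.556%, 1.28% and 1.51%. For the CRE and the E-box, the share in the 180 windows was thus above that of all windows but below that of the genes tested. Both strands were searched and a window was counted once per motif. Overlapping windows of a gene were each counted, so the same site can enter a share more than once. No test was made of these shares, and members of a family share ancestry and so are not independent.

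Transcription factors activated by the T-cell receptor were among the larger increases. All 3 Nr4a orphan receptors, immediate targets of the T-cell receptor, rose. Nr4a3 stood at 8.30, 8.27 and 8.16 in the control arrays and at 12.04, 12.62 and 12.12 with gp33. The groups were far apart, by 4.02 ± 0.24 (16.2-fold, 95% interval 11.3 to 23.2; limma adjusted p = 1.55e-08). Nr4a2 rose by 3.36 ± 0.16 and Nr4a1 by 2.80 ± 0.20. Nr4a1 reached 13.49 in the highest gp33 array, from controls between 10.39 and 10.53. Among Egr factors and their Nab corepressors, 5 of 6 rose. Egr2 was highest in change, from 9.49, 9.67 and 9.62 to 11.20, 11.10 and 11.08. Its difference of 1.53 ± 0.12 (limma adjusted p = 2.71e-07) exceeded those of Egr3 (0.81), the corepressor Nab2 (0.72) and Egr1 (0.65). Nab1 rose by 0.28, a call that was lost when any of 5 of the NOD.LCMV arrays was left out (all but gp33 array 1). Egr4 (0.12) was not called.

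AP-1 is a dimer of Fos, Jun, Atf and Batf proteins. Of 15 AP-1 and small Maf genes, 12 rose and none fell (0 by limma at an unadjusted p under 0.05 also), with a median difference of 1.08 against −0.03 over all genes. Atf3, a stress-induced repressor, rose by 3.57 ± 0.09, from 7.91, 7.85 and 7.86 to 11.30, 11.65 and 11.37. Batf, a partner of Irf4 on DNA, rose by 2.00, Fos by 1.99, Fosl2 by 1.96, Jun by 1.92 and Junb by 1.59. Jund (0.17), Mafg (0.11) and Batf3 (0.06) were not called. Fos was the most variable of these between the gp33 arrays, at 8.72, 9.71 and 9.27.

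The interferon regulatory factors divided by member. Irf4, which antigen-receptor signals induce in proportion to their strength, stood at 7.80, 7.53 and 7.39 with the control peptide and 11.29, 11.17 and 11.08 with gp33, a 12.2-fold rise (3.61 ± 0.14; limma adjusted p = 2.27e-10). Irf1, a target of interferon γ and NF-κB, rose by 1.70 and Irf8 by 1.52. A further probe set of Irf1 differed by 0.59. Irf9, Irf5 and Irf2 rose by 0.37, 0.36 and 0.34. Irf3 and Irf7, which carry the antiviral response, differed by −0.01 each and were not called.

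Other fate regulators moved in both directions. Tbx21, the T-bet gene of type 1 and cytotoxic T cells, stood at 7.0, 7.33 and 7.26 and then at 10.56, 10.04 and 10.34 (3.12 ± 0.13; limma adjusted p = 3.32e-10). Bhlhe40 rose by 1.60 and Nfatc1, which has an autoinduced isoform, by 1.06, whereas Nfatc2 fell by 0.38. Of 28 lineage factors of thymocytes, 9 rose and 5 fell (3 without gp33 array 2). The falls included Bcl11b, which holds T-cell identity (−0.71 ± 0.10), Foxo1, which drives genes of quiescence and homing (−0.64), and Runx1 (−0.36). Foxp3, the regulatory T-cell factor, was not called (0.10; limma adjusted p = 0.372), beside increases of Il2ra (1.67), Tnfrsf18 (1.38) and Ikzf2 (0.74), which regulatory and agonist-selected T cells share with recently stimulated ones.

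**Figure D2:**
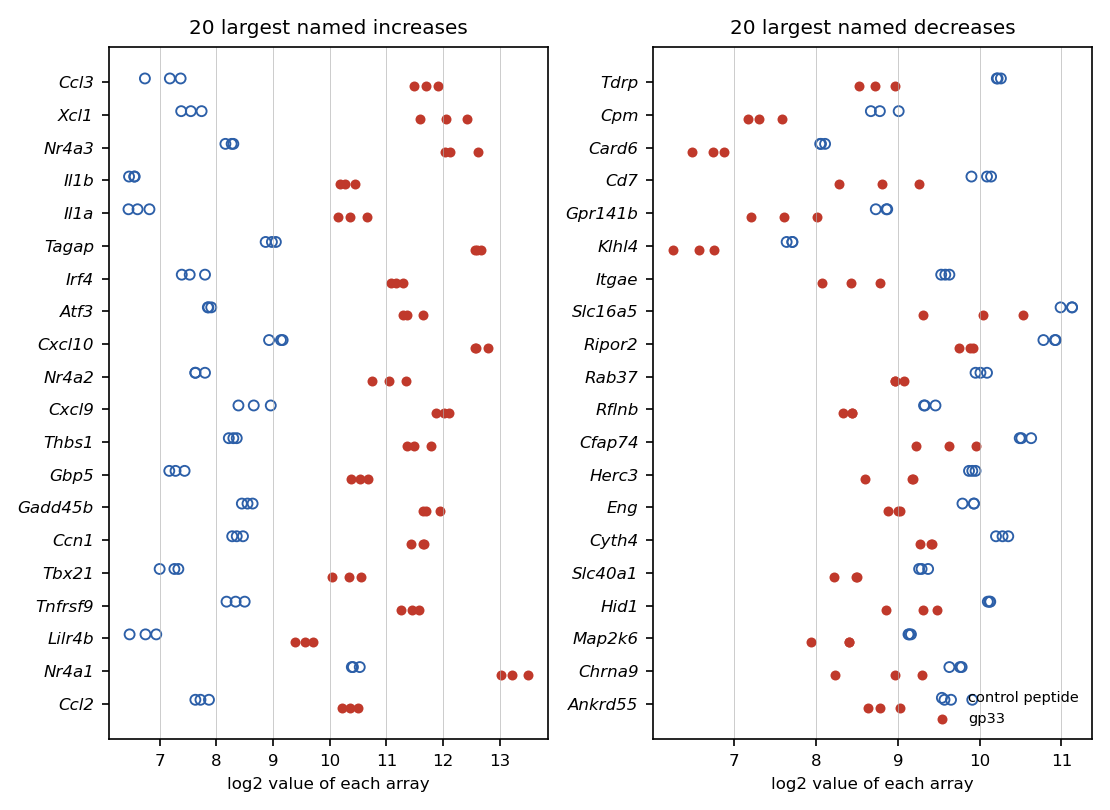
log2 value of each array (horizontal axis) for the 20 named genes with the largest increases (left) and the 20 with the largest decreases (right); open blue circles are the 3 control arrays and filled red circles the 3 gp33 arrays. The groups do not overlap for any of the genes shown, which holds for all 195 increases and all 10 decreases of at least 2-fold. These genes were chosen by their calls and differences on the same arrays, so the separation adds no support. Over all genes, the gp33 arrays lay wholly above the controls for 10.9% and wholly below them for 22.0%.

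Every measured member of the NF-κB family rose. NF-κB dimers are held inactive by IκB proteins, and several of both kinds are NF-κB targets themselves. All 10 genes rose, with a median of 1.44, and each kept its call when any of the 15 arrays was left out. Nfkb1 was not measured by a probe set of its own. Nfkbid lies on chromosome 7. It stood at 9.33, 9.27 and 9.40 with the control peptide, a mean of 9.33 ± 0.07 (SD, n = 3), and at 11.43, 11.53 and 11.44 with gp33, a mean of 11.47 ± 0.06 (SD, n = 3). The groups differed by 2.13 ± 0.11 or 4.39-fold (95% interval 3.71 to 5.18; limma adjusted p = 4.05e-09). It had the largest difference of the family, followed by the nuclear IκB Bcl3 (1.92 ± 0.13) and by the subunits of the alternative pathway, Nfkb2 (1.84 ± 0.12) and Relb (1.75 ± 0.08).

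Rel, the c-Rel subunit of lymphocytes, rose from 10.51, 10.47 and 10.62 to 12.23, 12.36 and 12.23 (1.74 ± 0.09; limma adjusted p = 1.85e-09). Nfkbia, which encodes IκBα, the inhibitor resynthesised after activation, was already at 11.32, 11.47 and 11.37 and reached 12.57, 12.53 and 12.47 (1.14 ± 0.07). Nfkbiz rose by 1.06, Nfkbie by 0.93 and Nfkbib by 0.75. The smallest difference belonged to Rela, the p65 subunit, at 0.36 ± 0.05 (limma adjusted p = 0.000172). All 3 windows of Nfkb2 hold a κB match, beside those of Nfkbid, Nfkbia and Rel described above. The Nfkb2 windows that start at bases 46305445 and 46305680 overlap and share a match. A wider list of 17 signalling and feedback genes was mixed, with 8 higher, 1 lower (0 without control array 3 or gp33 array 2 or 3) and a median of 0.11. Its increases were led by Tnip3 (2.19), the kinase Map3k8 (1.91) and Tnfaip3, the A20 deubiquitinase (1.74).

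Feedback inhibitors of other pathways rose selectively. Spry1, an inhibitor of Ras signalling, stood at 8.12, 8.14 and 8.14 and then at 10.77, 10.89 and 10.46 (2.57 ± 0.09; limma adjusted p = 7.0e-11). Of 11 MAP kinase phosphatases, 6 rose and 1 fell (2 without gp33 array 1), led by the nuclear phosphatases Dusp5 (2.14) and Dusp2 (1.27). Dusp6, the cytoplasmic ERK phosphatase, was not called (−0.25; limma adjusted p = 0.0765). Of 8 SOCS genes, which restrain cytokine receptors, 4 rose: Cish by 1.91, Socs3 by 1.36, Socs1 by 0.96 and Socs2 by 0.60. Further probe sets of Socs3 and Socs2 differed by 0.09 and 0.30. Socs2 lost its call without control array 3 or gp33 array 1. The G-protein regulators Rgs1 and Rgs16, which damp chemokine signals, rose by 2.13 and 2.06, while 4 other members of that family fell (2 without gp33 array 2). Of 11 mRNA decay and antiproliferative factors 7 rose and none fell (0 by limma at an unadjusted p under 0.05 also). Those that destabilise cytokine mRNA included Zfp36l1 (1.21), Zc3h12c (1.14), Zfp36 (0.94), Zc3h12a (0.94) and Zfp36l2 (0.29), and the antiproliferative ones were Btg1 (0.29) and Tob2 (0.28). Zfp36l2 lost its call without control array 1 or 3 or gp33 array 1 or 2, and Tob2 without any control array or gp33 array 2.

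Genes of secreted signals had the largest differences among named genes. Of 35 chemokines 21 rose and 1, Cxcl12, fell (−0.34), a call lost without any 1 of the NOD.LCMV arrays other than gp33 array 3. Ccl3, a product of activated T cells and myeloid cells, stood at 6.74, 7.37 and 7.18 in the controls and at 11.91, 11.70 and 11.49 with gp33, a 24.3-fold rise (95% interval 14.1 to 41.8; limma adjusted p = 2.99e-07). Xcl1, which CD8 T cells make to attract Xcr1-bearing dendritic cells, stood at 7.55, 7.74 and 7.38 and then at 12.42, 11.60 and 12.06, a 22.2-fold rise. Both sets of control values are in the lower part of the array's range, and background was not measured, so the folds may be compressed by an unknown amount. Cxcl10 (3.57) and Cxcl9 (3.33), chemokines induced by interferon γ, and Ccl2 (2.61), which attracts monocytes, followed. Ccl4 rose by 1.90, Ccl7 by 1.80 and Cxcl2, a neutrophil attractant, by 1.73. Ccl25, the bright epithelial chemokine of the thymus, stood at 12.98, 12.98 and 12.95 and at 12.92, 12.79 and 12.93 and was not called (−0.09 ± 0.06). A further probe set of Ccl25 was lower by limma (−0.25; adjusted p = 0.0138), and with probe sets averaged per gene 2 chemokines fell.

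Of 41 interleukins and related cytokines, 17 rose and 1 fell, Il16 (−0.20), a call lost without control array 1 or 2 or gp33 array 2 or 3. The median of the list was only 0.07, so the rise was carried by part of it. Il1b stood at 6.55, 6.46 and 6.56 and then at 10.18, 10.27 and 10.44, and Il1a rose by 3.76 in parallel. Il6 stood at 4.70, 4.69 and 4.68, among the dimmest values on the array, and then at 6.85, 7.64 and 7.23 (2.55 ± 0.13; limma adjusted p = 2.16e-09). These are cytokines best known from macrophages, dendritic cells and stroma. Ifng, the product of activated CD8 and type 1 T cells, stood at 6.70, 6.60 and 6.75 and at 9.15, 9.53 and 8.78 (2.47 ± 0.14; limma adjusted p = 1.22e-08). Il2 rose by 0.42 from a dim level. Il4 (0.07), Il10 (−0.03) and Il17a (0.00), products of other helper T-cell classes, were not called.

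Of 15 TNF-family ligands, 11 rose and none fell (2 lower by limma at an unadjusted p under 0.05). Leaving out the dimmest 33.3% of the genes, which takes dim members out of the test, gave 6 increases, and 1 member fell without gp33 array 1 or NOD.Ln82-LCMV control array 1. Tnf itself stood at 9.12, 9.18 and 8.99 and at 11.65, 11.39 and 11.41 (2.39 ± 0.15; limma adjusted p = 3.18e-08). Tnfsf14, or LIGHT, rose by 1.98, the lymphotoxin gene Lta by 1.30 and Cd40lg, the signal of T cells to dendritic and epithelial cells, by 0.81. Of 26 receptors of the family, 12 rose and 3 fell. Tnfrsf9, the costimulatory receptor 4-1BB, stood at 8.50, 8.34 and 8.18 and at 11.58, 11.46 and 11.26, an 8.54-fold rise (limma adjusted p = 1.07e-07). Tnfrsf1a, the widely expressed TNF receptor, fell by 0.29 and Tnfrsf26 by 0.80.

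Costimulatory and checkpoint molecules rose in 16 of 24 cases and fell in 2 (4 without NOD.Ln82-LCMV control array 1). The early activation antigen Cd69 rose by 1.98 ± 0.07, from 10.84, 11.02 and 10.97 to 12.97, 12.80 and 12.99 (limma adjusted p = 1.07e-10). Cd274, the ligand PD-L1, rose by 1.66 and its receptor gene Pdcd1 by 1.32. Apoptosis genes moved in both directions. Of 21 caspases and death adaptors 2 rose and 6 fell (2 fell without gp33 array 2), with a median of 0.01. Over all genes 7.29% rose and 12.5% fell. Of 15 BCL2-family genes, 5 rose and 1 fell, 40.0% called against 19.8% of all genes. The fall was that of Bmf (−0.46). The count of falls was 0 without control array 2 or 3 or gp33 array 2 and 2 without control array 1. Bcl2l11, which encodes BIM, a main effector of thymocyte deletion, rose from 10.21, 10.29 and 10.32 to 11.74, 12.23 and 12.03 (1.73 ± 0.11; limma adjusted p = 2.19e-08). The survival gene Bcl2l1 rose by 0.59 and kept its call with any array left out. Bbc3, or PUMA, stayed between 6.76 and 6.95 on all 6 arrays and was not called (0.07; limma adjusted p = 0.498). Gadd45b, a stress gene induced by NF-κB and TGF-β, rose 9.30-fold. Gzmb of the cytotoxic granule rose by 2.06, whereas the pore-forming Prf1 differed by −0.29 and was not called (limma adjusted p = 0.265).

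**Figure D3:**
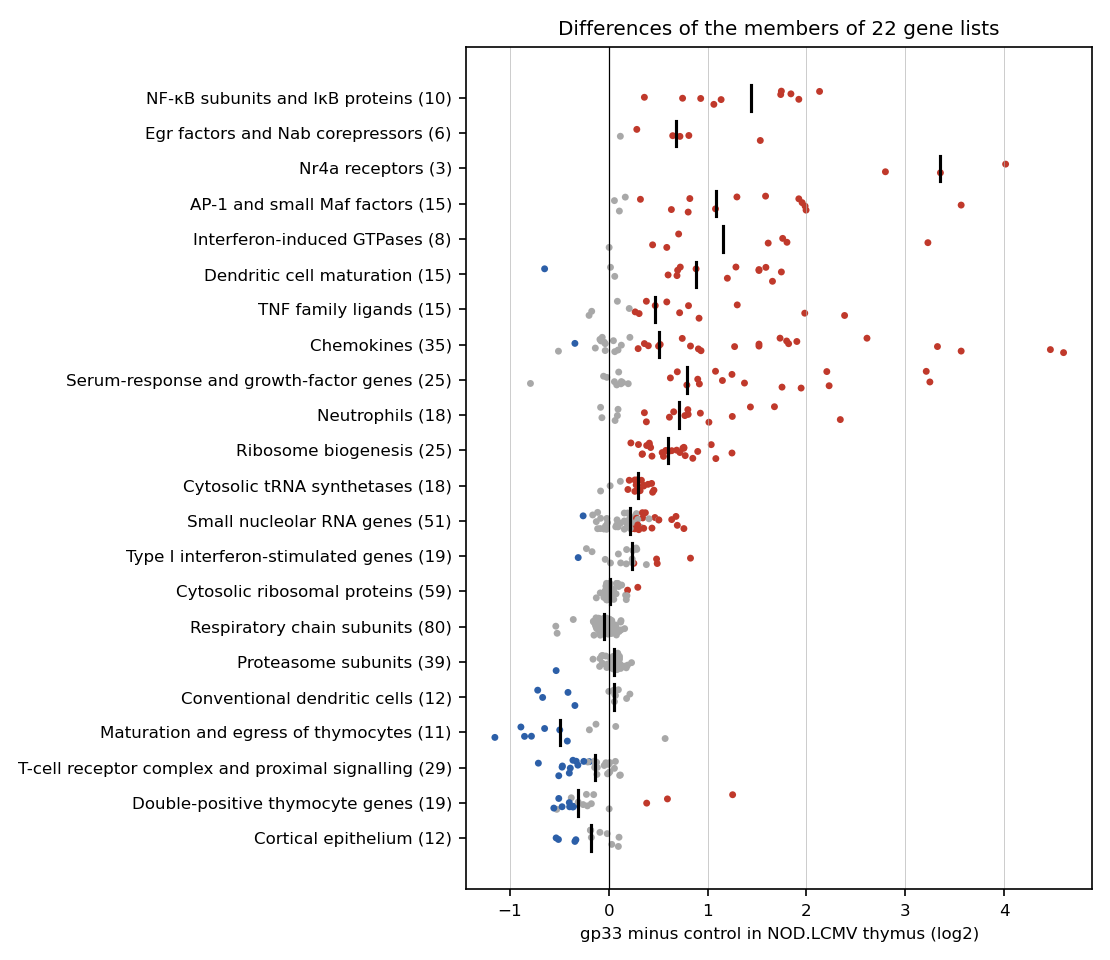
Differences (gp33 minus control, log2, horizontal axis) of the members of selected gene lists, with the number of measured members in parentheses; red points were called higher, blue lower and grey not called, and black bars are medians. The NF-κB family has a median of 1.44 and ribosome biogenesis 0.60, while ribosomal proteins (0.01) and the respiratory chain (−0.05) lie close to the median over all genes.

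The GTPases that interferon γ induces to defend cells against intracellular pathogens rose in 7 of 8 cases, with a median of 1.16. Gbp5 stood at 7.44, 7.17 and 7.28 and at 10.67, 10.53 and 10.38 (3.23 ± 0.14; limma adjusted p = 5.47e-10). Iigp1 rose by 1.80, Irgm1 by 1.76 and Gbp3 by 1.61. The rise of Gbp9 (0.44) was lost without control array 2 or gp33 array 1, and Gbp8 (0.00) was not called. Of 19 genes best known from type I interferon, 4 rose (Rsad2, Ifih1, Oasl1 and Oas1a) and 1 fell (Ddx58), with a median of 0.24. The rises numbered 2 without control array 2 and 1 without control array 3 or gp33 array 1. The fall was lost without any 1 of the NOD.LCMV arrays other than gp33 array 1, without which 2 fell. Rsad2 (0.83 ± 0.17; limma adjusted p = 0.00240) kept its call each time, while Ifit1 (0.28) and Mx1 (0.24) were not called. The gp33 arrays were spread for these genes. Mx1 stood at 7.67, 6.93 and 7.09 with gp33, around the control values of 7.06, 7.01 and 6.89. Ifnb1 (−0.09) was not called, in contrast to the rise of Ifng.

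Dendritic cells present antigen in the thymus, and their maturation genes moved apart from their lineage markers. Of 15 maturation genes, 12 rose and 1 fell, with a median of 0.88. Cd40 stood at 8.92, 8.76 and 8.63 and at 10.62, 10.35 and 10.11 (1.59 ± 0.12; limma adjusted p = 2.27e-07). Ccl22 and Ccl17, which attract Ccr4-bearing thymocytes, each rose by 1.52, the costimulatory ligands Cd80 and Cd86 by 1.29 and 0.72 (a further probe set of Cd80 differed by 0.56), and Cd83 by 1.20. Several of these genes are also expressed by epithelial or lymphoid cells, so whole thymus does not tell which cell carried them. Ccr7, the homing receptor of mature dendritic cells and of medullary thymocytes, fell by 0.65.

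Of 12 lineage genes of conventional dendritic cells none rose and 4 fell, with a median of 0.05. At an unadjusted p under 0.05 limma gave 0 higher and 4 lower. Clec9a stood at 7.28, 7.28 and 7.26 and at 6.48, 6.63 and 6.55 (−0.72 ± 0.10; limma adjusted p = 0.000142). Xcr1, the receptor for Xcl1, stood at 9.30, 9.28 and 9.38 and at 8.56, 8.67 and 8.72 (−0.67 ± 0.08). Both mark the cross-presenting subset, as does Tlr3 (−0.41). Flt3 fell by 0.34, a call lost without gp33 array 2. Itgax and Zbtb46, shared by all conventional dendritic cells, were not called. In whole tissue, fewer cells of a type and less RNA per cell cannot be told apart, which applies to every cell-type gene here.

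Genes of the serum and growth-factor response, best known from stromal, endothelial and epithelial cells, rose in 15 of 25 cases with none lower (0 by limma at an unadjusted p under 0.05 also) and a median of 0.79. Ccn1, a matrix protein, stood at 8.28, 8.47 and 8.36 and at 11.44, 11.65 and 11.66, a 9.28-fold rise (limma adjusted p = 2.55e-10). Thbs1, a matrix protein of platelets and stroma, rose 9.51-fold. F3, the tissue factor that starts coagulation, rose by 2.23, and Ptgs2, the inducible cyclooxygenase, by 2.21. Phlda1 rose by 0.62, a call lost without control array 3, without which 1 member of the list also fell. Srf itself (0.20; limma adjusted p = 0.0782), the related matrix gene Ccn2 (0.13) and the actin gene Actb (−0.02) were not called. Of the 16 promoter windows found for this list, 5 held a CArG box (31.3%). The share was 1.41% for the genes tested and 1.63% for all windows. A list of serum-response genes favours this motif by its making, so no conclusion was drawn from the share. In endothelium the leukocyte adhesion receptor Sele rose from 6.98, 6.97 and 7.10 to 8.11, 8.58 and 8.17 (1.27 ± 0.10). It was the only one of 20 endothelial genes to rise. There 5 fell (3 without control array 2 or gp33 array 1, 8 without NOD.Ln82-LCMV gp33 array 5), among them the TGF-β coreceptor Eng (−0.91) and the junction protein Pecam1 (−0.61). In either direction 30.0% of the 20 were called against 19.8% of all genes, of which 12.5% fell.

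Genes of neutrophils rose in 13 of 18 cases, with a median of 0.71 and none lower (0 by limma at an unadjusted p under 0.05 also). When the dimmest 33.3% of the genes was left out of the test, 6 of them rose, since many are dim in this tissue. Clec4e, a receptor for damaged cells and mycobacteria that macrophages also induce, stood at 5.79, 6.0 and 6.04 and at 8.40, 7.86 and 8.60 (2.34 ± 0.13; limma adjusted p = 6.85e-09). Retnlg stood at 5.83, 5.82 and 5.71 and at 7.35, 7.55 and 7.49, and Mmp8, the neutrophil collagenase, rose by 1.43. S100a9 rose by 1.25 with gp33 array 3 highest at 9.17, and Csf3r, the receptor for the granulocyte growth factor, by 1.01. Among genes of granule proteins, Mmp8 and Lcn2 rose, while Mpo (0.06), Elane (0.09), Camp (−0.07), Ltf (−0.08) and Ngp (0.09) were not called. The call of Lcn2 (0.80) was lost without control array 2 or 3 or gp33 array 1 or 3, that of Ly6g (0.38) without control array 3 or gp33 array 1 or 3, and that of Il1r2 (0.36) without any of 8 arrays. The mean over the 8 neutrophil markers fixed with the design lay between 6.89 and 7.14 in the control arrays and between 7.51 and 7.83 with gp33, and 5 of the 8 rose. The part of neutrophils in the rises of Il1b, Ptgs2 and Cxcl2, which they also express, was not tested.

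Genes of ribosome biogenesis and most tRNA synthetase genes rose. All 25 genes of ribosome biogenesis rose, with a median of 0.60 and a range from 0.22 to 1.25, and between 22 and 25 did so when 1 array was left out. Rcl1, a factor of 18S rRNA processing, stood at 9.35, 9.45 and 9.24 and at 10.62, 10.65 and 10.51 (1.25 ± 0.07; limma adjusted p = 1.31e-08). Polr1b, a subunit of RNA polymerase I, rose by 1.08, the export factor Rrp12 by 1.04 and the nucleolar GTPase Gnl3 by 0.90. The calls of Fbl (0.34), Npm1 (0.34) and Wdr12 (0.22) were lost without 5, 9 and 6 single arrays, the 3 control arrays among them for each gene. Myc, the transcription factor known to drive this program, stood at 11.01, 11.05 and 10.76 and at 12.40, 12.36 and 12.26 (1.40 ± 0.07; limma adjusted p = 3.30e-09), and its antagonist Mxd4 fell by 0.51. Of 10 genes of the Myc network 3 rose and 3 fell (1 after a second quantile normalization), with a median of −0.04. The part of Myc in the rise of ribosome biogenesis genes was not tested. Of 18 tRNA synthetases, 15 rose by small amounts (median 0.30, at most 0.46 for Rars). Of 51 small nucleolar RNA genes, which guide rRNA modification and lie largely in introns of growth genes, 16 rose (12 to 18 with 1 array left out) and 0 to 2 fell, led by Snora75 (0.76 ± 0.06).

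Of 15 nutrient transporters 6 rose and 9 were not called, with a median of 0.08. The amino-acid transporters Slc7a1 and Slc7a5 rose by 1.5 and 1.18. Of 17 glycolysis genes 3 rose and 2 fell, with a median of −0.01. Of 18 genes of cholesterol synthesis and uptake 5 fell (3 to 6 with 1 array left out), with a median of −0.15. None of these 18 rose (1 higher by limma at an unadjusted p under 0.05). Cytosolic ribosomal proteins, by contrast, had a median of 0.01, and 2 of 59 rose (Rpl12 by 0.29 and Rpl30 by 0.19). None of the 80 respiratory chain subunits was called by limma, with 1 higher and 4 lower at an unadjusted p under 0.05. The alternatives gave at most 1 higher or 4 lower calls. Of 29 genes of the cell cycle and replication, 2 rose and 4 fell, with a median of 0.01. The share called was 20.7%, close to the 19.8% of all genes. Ccnd2, the D cyclin of the first growth response, rose by 1.29, whereas Mki67 (0.05; limma adjusted p = 0.538) and Pcna (0.09; limma adjusted p = 0.242) were not called.

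MicroRNA genes were called in 22 of 300 cases, 21 higher and 1 lower, so the share called higher was close to the background of 7.29%. At least 2-fold rises numbered 6. Without control array 1 the counts were 12 higher and 5 lower, and without the dimmest 33.3% of the genes 11 were higher. The 1 fall was Mir200b (−0.19), and 1 to 5 fell when single arrays were left out. The probe sets read the precursor or host region, so processed and primary RNA cannot be told apart. Mir155, the gene of miR-155, which activated lymphocytes and macrophages induce, stood at 6.62, 6.69 and 6.77 and at 9.25, 8.85 and 8.86, a 4.90-fold rise (2.29 ± 0.13; limma adjusted p = 6.85e-09). It kept its call with any array left out.

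The Myc-responsive miR-17 to miR-92 cluster rose over its whole measured length. Its 5 measured precursors lie within 721 bases of chromosome 14, from Mir17 to Mir19b-1, and share 1 primary transcript, so they are not independent. Mir18 rose from 7.84, 7.59 and 7.27 to 9.0, 9.08 and 8.80 (1.39 ± 0.17; limma adjusted p = 3.05e-05). Mir19a rose by 1.30, Mir19b-1 by 1.22, Mir20a by 0.56 and the host gene Mir17hg by 0.71 ± 0.08. Mir17 rose by 0.33, a call lost without control array 1 or gp33 array 2. These differences, also those within the seed pairs given above (Mir17 with Mir20a, Mir19a with Mir19b-1), were not tested against each other. Mir142 (1.17 ± 0.31) and Mir181a-1 (1.06 ± 0.29) had wider errors, and each lost its call without any of control array 1, control array 3, gp33 array 1 and gp33 array 2.

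**Figure D4:**
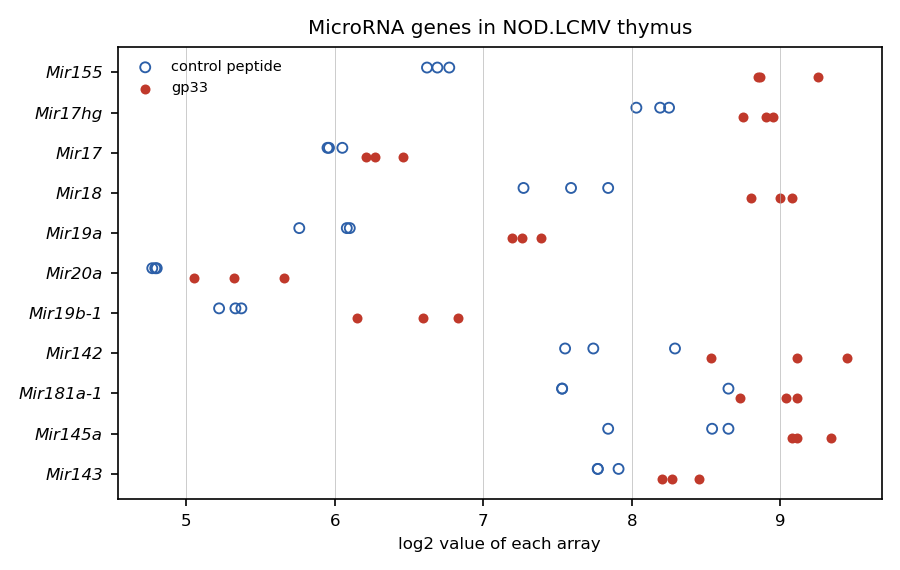
log2 value of each array (horizontal axis) for 11 microRNA or host genes in NOD.LCMV thymus; open blue circles are the 3 control arrays and filled red circles the 3 gp33 arrays. The groups are 2.29 apart on average for Mir155 and 1.39 for Mir18, while for Mir181a-1 the highest control array (8.65) lies close to the lowest gp33 array (8.73).

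The decreases were smaller than the increases. The largest named falls were Tdrp, from 10.22, 10.26 and 10.21 to 8.72, 8.53 and 8.96 (−1.49 ± 0.29; limma adjusted p = 0.00170), and Cpm, a membrane carboxypeptidase, from 8.67, 8.78 and 9.01 to 7.30, 7.17 and 7.58 (−1.47 ± 0.17). Card6 (−1.37), the T-cell surface protein Cd7 (−1.26), Gpr141b (−1.21) and Itgae, the integrin subunit CD103 of maturing CD8 thymocytes (−1.15), followed. For Cd7 and Itgae the gp33 arrays were spread, the former at 9.26, 8.28 and 8.81, yet all lay below the controls. Klhl4 fell by 1.16, a call lost without gp33 array 2.

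Genes of thymocyte maturation and exit fell in 7 of 11 cases with none higher, and their median was −0.50. By limma 1 of them, Samhd1, was higher at an unadjusted p under 0.05 (0.57 ± 0.20; limma adjusted p = 0.0635). Samhd1 was called without control array 1, gp33 array 2 or NOD.Ln82-LCMV control array 1. S1pr1, the receptor through which mature thymocytes leave toward the blood, stood at 9.24, 9.17 and 9.20 and at 8.43, 8.32 and 8.30 (−0.85 ± 0.07; limma adjusted p = 5.92e-07). Ms4a6b fell by 0.89, the integrin Itgb7 by 0.78 and S1pr4 by 0.42. Cd69, whose protein holds S1pr1 off the cell surface, rose as given above.

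Receptor signalling genes fell in part. Of 29 genes of the T-cell receptor complex and its proximal signalling none rose (0 by limma at an unadjusted p under 0.05 also) and 11 fell, with a median of −0.14. That was 37.9% called against 19.8% of all genes, of which 12.5% fell. Many of the 29 are bright, and no comparison with genes of like level was made. The count of falls was 6 without control array 1 or gp33 array 2 and 7 without control array 2. The adaptor Grap2 fell from 12.24, 12.24 and 12.22 to 11.74, 11.24 and 11.58 (−0.71 ± 0.10; limma adjusted p = 0.000120). Cd8a fell from 12.64, 12.67 and 12.62 to 12.29, 11.88 and 12.24 (−0.51 ± 0.09), Txk by 0.47, Themis by 0.40 and Lat by 0.31. The lowest of the gp33 arrays was array 2 for each of these 5 genes. Cd3e (−0.05), Cd3g (−0.03), Cd3d (−0.12) and Cd247 (−0.14) were not called. These chains are bright genes of the same cells. Of 19 genes of double-positive thymocytes 3 rose and 7 fell (4 fell without control array 1, control array 2 or gp33 array 2).

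Proteins that restrain the T-cell receptor moved both ways. Of 21 such genes 5 rose and 7 fell, and the median was −0.07. Cd5, a surface inhibitor whose level is known to follow receptor signal strength, stood at 12.35, 12.33 and 12.36 in the control arrays and at 12.79, 13.17 and 12.88 with gp33 (0.60 ± 0.10; limma adjusted p = 0.000376). Its relative Cd6 rose by 0.68 and the ubiquitin ligase Cblb by 0.48. The phosphatase Ubash3a fell by 0.43, and Pag1, the membrane anchor of the kinase Csk, fell by 0.42. For each of these 5 genes the control and gp33 arrays did not overlap. The same held for 1438 of the 1453 genes called higher and 2435 of the 2490 called lower, so it adds nothing to the calls. Over all genes, the gp33 arrays lay wholly above the controls for 10.9% and wholly below them for 22.0%.

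Adhesion molecules and tetraspanins were split as well, with 6 of 21 higher, 6 lower and a median of −0.05. Icam1, the ligand of the integrin LFA-1 and an NF-κB target, rose from 10.08, 10.14 and 10.08 to 11.88, 11.75 and 11.75 (1.69 ± 0.07; limma adjusted p = 3.32e-10). The hyaluronan receptor Cd44 rose by 1.14, the fibronectin receptor subunit Itga5 by 1.03 and the tetraspanin Cd82 by 0.85. Itgal, the α chain of LFA-1, fell by 0.34 and the tetraspanin Cd37 by 0.40. The rises in this list reached 1.69 and the falls −0.40.

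Of 16 p53 and Gadd45 genes 5 rose and 2 fell, with a median of 0.02. Beside Gadd45b, given above, the risers were Gadd45g (1.42 ± 0.08), the polo-like kinases Plk3 (1.23 ± 0.12) and Plk2 (1.12 ± 0.10), and the nuclease Aen (0.59 ± 0.06). Sesn1, a p53 target that restrains growth signalling, fell by 0.50. Mdm2, the ubiquitin ligase of p53, fell by 0.19, a call lost without any of control array 1, control array 2, gp33 array 2 and gp33 array 3, each of which left 1 lower. Of 13 heat shock proteins and chaperones 4 rose and none fell by limma (8 higher and 0 lower at an unadjusted p under 0.05): Hspa9 by 0.35, Hspd1 by 0.33, Hspa4 by 0.28 and Hsph1 by 0.46, the last without a call when control array 2, control array 3 or gp33 array 2 was left out.

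Some cortical epithelial genes fell as well. Of 12 cortical epithelial genes 4 fell (2 without control array 1, control array 2 or gp33 array 2), with stable calls for Psmb11, the thymoproteasome subunit (8.56, 8.45 and 8.51 against 7.93, 8.02 and 7.97), and Dll4, the Notch ligand of the cortex (−0.51). Of 16 genes of the Notch pathway, however, 3 rose and 5 fell, with a median of 0.015. The lowest of them was the Notch target Hey1 (−0.69). Of 11 medullary epithelial genes, by contrast, 2 rose (1 without control array 1, control array 3 or gp33 array 1) and none fell. That was 18.2% called against 19.8% of all genes, with a median of 0.00. At an unadjusted p under 0.05 limma gave 3 higher and 0 lower. Of 21 macrophage genes the iron exporter Slc40a1 (−0.90 ± 0.13) and the clearance receptor Mertk (−0.53) fell and none rose by limma (4 lower and 0 higher at an unadjusted p under 0.05), 9.5% lower against 12.5% of all genes. Their median of −0.03 was that of all genes. Zinc-finger genes named Zfp, many of them DNA-binding proteins, fell more often than they rose. Of 317, 75 fell and 12 rose, 27.4% in all against 19.8% of all genes, and the median was −0.10. The share of all genes includes the seldom called dim genes. The Zfp genes were not set against genes of like level, so no excess of calls can be read from these shares. Of 12 glucocorticoid targets 6 rose and none fell by limma (0 lower at an unadjusted p under 0.05 also, 1 called with array weights), and the median was 0.23. Errfi1 (1.59), the metallothionein Mt2 (1.48) and Per1 (1.01) rose, whereas Tsc22d3 (0.00) and Fkbp5 (0.01) were not called.

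The same peptides were given to NOD.Ln82-LCMV mice, and their 9 arrays share no control array with the NOD.LCMV comparison. The difference between the strains' responses was called for 1740 genes (8.73%). Of the 195 genes that rose at least 2-fold in NOD.LCMV, 192 had a larger response there by this test. Their median difference was 1.48 in NOD.LCMV and 0.17 in NOD.Ln82-LCMV. In the latter 184 of the 195 lay above 0, but 1 of them was called. Of the 10 genes that fell at least 2-fold, 7 had a larger fall in NOD.LCMV, and their medians were −1.19 and −0.22. These genes were chosen by their NOD.LCMV values, which favours a larger value there, and the labels do not allow a batch that followed the strain to be told apart from the strain.

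Among the genes of named groups, Nfkbid differed by 2.13 in NOD.LCMV and by 0.43 in NOD.Ln82-LCMV, and the responses differed by 1.71 (limma adjusted p = 2.16e-06). For Irf4 the values were 3.61 and 0.56, for Il6 2.55 and 0.01 and for Ccn1 3.21 and 0.17. Bcl2l11 gave 1.73 and 0.43, and the responses differed by 1.29 (limma adjusted p = 2.08e-05). Myc gave 1.40 and 0.12. Of the factors closest to the receptor, Nr4a1 gave 2.80 and 0.86, while Egr1 gave 0.65 and 0.20 and its responses did not pass the test of a difference (0.45; limma adjusted p = 0.0912). Cd69 was the gene of the 195 called in NOD.Ln82-LCMV, by 0.46 against 1.98. Nab2 (0.72 and 0.35; limma adjusted p of the difference = 0.341) and Tnfrsf1a (−0.29 and −0.12; limma adjusted p of the difference = 0.245) did not pass that test either.

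**Figure D5:**
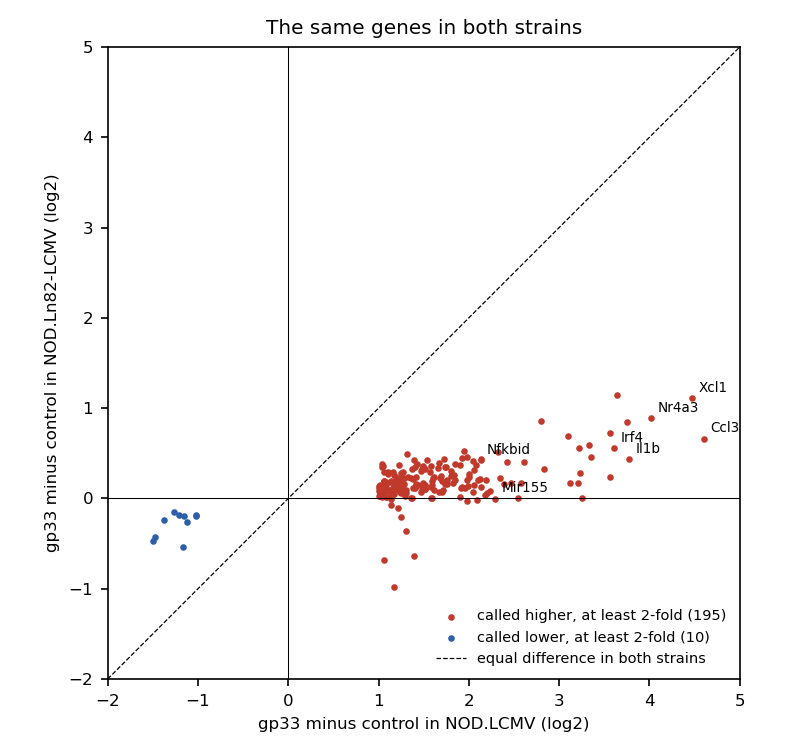
Difference between gp33 and control peptide in NOD.LCMV (horizontal axis, log2) and in NOD.Ln82-LCMV (vertical axis, log2) for the 195 genes called at least 2-fold higher (red) and the 10 called at least 2-fold lower (blue) in NOD.LCMV; the dashed line marks equal differences. The red points lie below the line, with medians of 1.48 and 0.17, and the blue points above it, with medians of −1.19 and −0.22.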

How the data were processed

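Each array has 35556 probe sets in the deposited table. Their log2 values come from RMA, run by the authors in Affymetrix Expression Console 1.1, per the submitters' processing notes. No further normalization was applied, and RMA forces array distributions to be alike, so a shift common to most genes would not be seen. The platform annotation gave 1 symbol for 21789 probe sets, several for 1621 and none for 12146. Each of the 19938 genes was represented by its probe set with exactly 1 symbol, or, for the 999 genes with several, by whichever was brightest on average across the 15 arrays. Of the genes, 19856 matched the gene table by gene identifier.

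The fit used limma 3.58.1 in R 4.3.3 on all arrays, with group means as coefficients, 11 residual and 14.9 total degrees of freedom, two-sided moderated tests and Benjamini-Hochberg adjustment. Intervals of folds are 95% intervals. The fit was tested on simulated data. The members and the gene lists were chosen with earlier results of these data known. Named genes were Nfkbid, the 20 largest called differences in each direction (leaving out predicted, clone-named, small RNA, olfactory and vomeronasal receptor genes and antigen receptor segments), all members of lists of up to 12 genes, and of longer lists up to 8 called members of smallest adjusted p and 3 of largest p. Outside this rule, as fixed cell markers or chosen after their values were seen, the text names Bbc3, Camp, Cd247, Cd3d, Cd3e, Cd3g, Cd86, Cxcl2, Elane, Ifit1, Ifnb1, Il10, Il16, Il1r2, Il2, Il4, Lcn2, Ly6g, Mir142, Mir17, Mir181a-1, Mir200b, Mki67, Mx1, Pcna, Pdcd1, Phlda1, Prf1, Srf and Tnfrsf1a. Of the listed genes, 69 had no probe set of their own. Alternatives changed the scaling (median centring, or quantile normalization once more), the genes (without the dimmest 33.3%, whose mean log2 was under 6.92), the use of probe sets (averaged per gene, or tested singly), the variance model (trend, array weights), the arrays (the 6 NOD.LCMV arrays only, or each array left out), the fold limit (1.5-fold) and the block (replicate numbers). Coordinates come only from RefSeq sequence tables of GRCm38.p6. The build of the array annotation is not given in the sources used here.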

Additional observations from a re-analysis of the deposited data

Results flagged for a closer look

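The test of the difference between the strains' responses was passed by Nfkbid and most of the named genes of largest difference. With the NOD.Ln82-LCMV response subtracted from that of NOD.LCMV, the difference was 1.71 for Nfkbid, 3.94 for Ccl3, 3.36 for Xcl1, 3.13 for Nr4a3, 3.34 for Il1b, 2.90 for Il1a, 2.50 for Tagap, 3.05 for Irf4, 3.33 for Atf3, 2.84 for Cxcl10 and 2.90 for Nr4a2. For the genes that fell it was −1.04 for Cpm, −1.14 for Card6, −1.11 for Cd7, −1.03 for Gpr141b, −0.96 for Itgae, −0.83 for Ripor2 and −0.84 for Rab37. The genes were chosen by their NOD.LCMV values.

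Single NOD.Ln82-LCMV arrays lay far from the rest of their group by Dixon's 95% criterion, which chance alone meets in about 1 group in 20. Among the 4 control arrays such values were 7.19 for Xcl1, 8.69 for Tagap, 10.34 for Tdrp, 8.15 for Klhl4, 9.40 for Itgae and 10.75 for Ripor2. Among the 5 gp33 arrays it was 8.50 for Gpr141b. NOD.LCMV groups have 3 arrays and were not examined in this way.

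Among the 12146 probe sets without a gene symbol, which entered no comparison, 277 were called higher and 448 lower in NOD.LCMV, and 16 were at least 2-fold higher and 1 at least 2-fold lower.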

How the results depend on the processing

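The counts called were 1453 higher, 2490 lower and, at least 2-fold, 195 higher and 10 lower, and 1740 genes had unlike responses in the strains. Testing against 1.5-fold gave 211 higher, 5 lower, 4 at least 2-fold lower and 128 unlike responses, as a stricter test must. Array weights gave 3175 unlike responses; the cause was not tested. With each array left out in turn, 1226 to 1537 genes were higher, 1767 to 2734 lower, 186 to 197 at least 2-fold higher and 7 to 21 at least 2-fold lower (21 without NOD.LCMV control array 3), and 1207 to 1954 responses were unlike. Nfkbid ranged from 2.10 to 2.17. The replicate block, for NOD.Ln82-LCMV arrays that share a number, gave 1369 higher, 2314 lower, 1553 unlike responses and 2.13 for Nfkbid. NOD.LCMV arrays carry no shared number. Of 373 called named genes, 0 changed sign under any alternative, 331 kept their call in every alternative other than the 1.5-fold limit and single arrays left out, and 312 with any array left out.

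No background level was measured, so no limit can be set for the folds of dim genes. With 3 arrays a group, some small differences rest on single arrays.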

Other observations

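The B-cell coactivator Pou2af1 rose by 0.91 ± 0.13 in NOD.LCMV thymus (limma adjusted p = 0.000118), whereas of the 5 measured B-cell markers fixed with the design none was called. Of 14 clock genes 5 rose and 2 fell, with a median of 0.02. Bhlhe40 (1.60), Per1 (1.01), Per2 (0.56), Nfil3 (0.49) and Nr1d2 (0.22) rose, and Dbp (−0.58) and Nr1d1 (−0.44) fell. Nr1d1 lost its call, leaving 1 lower, after median centring or a second quantile normalization. In the leave-one-out fits it lost it without any 1 of the NOD.LCMV arrays other than control array 3, or without NOD.Ln82-LCMV control array 3, gp33 array 3 or gp33 array 4. Nr1d2 lost its call without control array 2, gp33 array 1 or gp33 array 3.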
